A study of Mus musculus with 18 samples.

Results

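The genes described here are the core of the cell's machinery for building and unsaturating fatty acids. They are *Acly*, *Acaca*, *Fasn*, *Scd1*, *Scd2*, *Elovl1*, *Elovl5*, *Elovl6*, *Fads1* and *Fads2*, which were taken from the count table by gene name and make up 10 of its 35275 genes. RNA-seq counted reads per gene in 18 libraries from 6 mouse cell lines, each derived from a separate malignant peripheral nerve sheath tumor (MPNST), a cancer of the nerve sheath. The tumors were raised in immune-competent wild-type 129 Sv/Jae mice by injecting the sciatic nerve with an adenovirus that carried guide RNAs and Cas9 under the CMV promoter, which is not restricted to 1 cell type. In 3 lines the guides were against *Nf1* and p53 (*Nf1*/*p53* dKO, double knockout), and in 3 lines against *Nf1* and *Cdkn2a* (*Nf1*/*Cdkn2a* dKO), so that both groups share the loss of *Nf1* and neither is a line with intact tumor suppressors. Each line was grown as 3 untreated cultures, in medium with serum and after repeated passaging. Serum supplies lipids, and the age of the mice is not given in the sources used here.

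In fatty acid synthesis, citrate exported from mitochondria is split into acetyl-CoA, carboxylated to malonyl-CoA and condensed, step by step, into palmitate. Elongases then lengthen this saturated chain and desaturases put double bonds into it, which sets how fluid membranes are and which precursors of signaling lipids a cell holds. The enzymes of *Elovl5*, *Fads1* and *Fads2* lengthen and unsaturate the linoleic and alpha-linolenic acids that a cell takes up, and most of the genes are known targets of the SREBP transcription factors, which respond to sterols and insulin. Growing tumor cells often depend on this pathway, and the peripheral nerve's Schwann cells use it heavily while they make myelin.

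Each library held between 19560535 and 28312207 counts, and a line, with its 3 cultures summed, between 65206479 and 73065228. All levels are given as CPM (counts scaled to a fixed library total, after TMM normalization) of the summed line unless a culture is named. The genotypes are those of the labels, and every direction below rests on them. *Trp53*, the p53 gene, had 94.1, 67.5 and 58.7 CPM with *p53* deleted (lines 1 to 3 in order, here and below) and 246.9, 246.0 and 184.8 CPM with *Cdkn2a* deleted. It was lower in the *Nf1*/*p53* dKO lines without overlap (log2 fold change 1.62 for *Nf1*/*Cdkn2a* over *Nf1*/*p53* dKO, SE 0.23, edgeR adjusted p = 0.036). The other targeted genes did not separate the lines. *Nf1* ranged from 27.7 to 69.99 CPM with *p53* deleted and from 12.7 to 38.3 CPM with *Cdkn2a* deleted, and *Cdkn2a* from 42.9 to 363.0 and from 168.8 to 391.6 CPM. A guide RNA can end a protein without removing its transcript, so these counts check the labels only for *Trp53*. The identity of the cells was read from marker lists. The 11 mesenchymal markers summed to between 10766 and 25078 CPM per line, while the Schwann cell marker *Sox10* had at most 5 counts in any culture, and the adipocyte markers *Adipoq*, *Plin1* and *Cidec* at most 1. Other members of these lists were expressed, with *Gap43* at up to 59.6 CPM and *Pmp22* at up to 71.3 CPM among Schwann cell markers, and *Cebpa* at up to 48.1 CPM and *Pparg* at up to 8.78 CPM among adipocyte markers.

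Promoter sequence is shown for 3 of the genes, *Elovl1* and *Fads2* because their levels did not overlap between the genotypes, and *Fasn* as the central synthase. RefSeq gave windows from 250 bases before to 50 after the start of transcription for 7 of the 10 genes, with 2 windows for *Elovl1*, in build GRCm38.p6. The 250 bases before the RefSeq start are printed 5′ to 3′ on the gene's strand, for *Elovl1* from chr4:118427843-118428092 (plus strand), for *Fads2* from chr19:10101504-10101753 (minus strand) and for *Fasn* from chr11:120824548-120824797 (minus strand). The *Fads2* gene as given below, from the GENCODE M21 annotation, reaches 10101746. Nearly all of its printed stretch thus lies within the gene as annotated there. Capitals mark CCAAT (or ATTGG on the other strand) and GGGCGG (or CCGCCC), the letters of the CCAAT box and of the GC box bound by NF-Y and Sp1.
Elovl1: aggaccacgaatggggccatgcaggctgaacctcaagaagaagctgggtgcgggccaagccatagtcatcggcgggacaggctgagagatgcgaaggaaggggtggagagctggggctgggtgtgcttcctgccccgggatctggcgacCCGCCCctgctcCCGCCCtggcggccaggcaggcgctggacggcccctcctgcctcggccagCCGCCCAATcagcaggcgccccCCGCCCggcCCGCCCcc
Fads2: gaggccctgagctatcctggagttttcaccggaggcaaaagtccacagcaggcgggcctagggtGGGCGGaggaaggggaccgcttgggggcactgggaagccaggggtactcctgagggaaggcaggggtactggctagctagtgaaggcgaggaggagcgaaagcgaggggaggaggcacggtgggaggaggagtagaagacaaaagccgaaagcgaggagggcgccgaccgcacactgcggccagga
Fasn: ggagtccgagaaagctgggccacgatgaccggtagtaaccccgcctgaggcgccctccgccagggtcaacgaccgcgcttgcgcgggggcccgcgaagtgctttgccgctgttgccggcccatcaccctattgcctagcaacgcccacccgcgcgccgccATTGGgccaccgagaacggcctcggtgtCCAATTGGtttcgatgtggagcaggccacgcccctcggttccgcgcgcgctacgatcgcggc
The printed stretches of these 3 genes differed in these letters. That of *Elovl1* held GGGCGG letters 5 times, all on the opposite strand, and CCAAT once, 35 bases before the start, sharing bases with a GC box. That of *Fasn* held CCAAT letters 3 times, at 90, 62 and 59 bases before the start, of which the nearest pair overlaps, and no GC box. That of *Fads2* held 1 GC box, 186 bases before the RefSeq start, and no CCAAT.

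Across the 8 windows, CCAAT was present in 4 (*Acly*, *Fasn*, *Elovl1* and *Elovl5*) and in 37.4% of all 32851 RefSeq mouse windows of this length. GGGCGG was present in 4 of the 8, both windows of *Elovl1* among them, and in 35.7% of all windows. CACGTG, the E-box of bHLH factors, was present only in the *Elovl5* window among these 8, and in 7.15% of all. TCACNCCAC, the letters of the sterol response element, was present in none of the 8 and in 1.24% of all. Both strands were searched, and the letters describe these windows only. The *Acaca* window (chr11:84195188-84195487) lies inside the gene, which starts at 84129672 in GENCODE M21, so it does not cover that start. The second *Elovl1* window lies inside its gene as well.

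Between the genotypes, the genes of fatty acid synthesis and desaturation went in both directions and by small amounts. Of the 10, all passed the filter on low counts, 5 had a higher and 5 a lower fitted level in the *Nf1*/*Cdkn2a* dKO lines, and none passed an adjusted p of 0.05 in edgeR's quasi-likelihood test over the 6 lines, in which 1.80% of the 15207 genes tested were called. At an unadjusted p under 0.05 there were 2 of the 10 (*Elovl1* and *Fads2*), against 22.4% of all genes, and 9.81% of all genes in their direction. DESeq2 on the same 6 lines called none of the 10 and 14.3% of all genes, and 2 of the 10 had an unadjusted p under 0.05 in it, against 25.8% of all genes. The levels of 2 of the 10 did not overlap between the genotypes, against 31.4% of all genes in either direction and 14.8% with the *Nf1*/*Cdkn2a* dKO lines higher. The median log2 fold change of the 10 was 0.03, beside -0.02 over all genes tested, and the median size of the change without its sign was 0.32, beside 0.38 over all. The same 5 genes were fitted higher with DESeq2's size factors, upper-quartile scaling and raw totals. In bulk RNA, fewer cells of a type and less RNA per cell cannot be told apart.

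The number of calls depended on what was taken as a replicate. With the 18 cultures entered as separate samples, edgeR and DESeq2 each called 5 of the 10 (*Acaca*, *Scd1*, *Elovl1*, *Elovl5* and *Fads2*), but also 46.5% and 48.9% of all 13110 genes in that fit, since cultures of 1 line were then counted as independent. With limma-voom on the 18 cultures and the line as a random effect, *Elovl1* (adjusted p = 0.038) and *Fads2* (adjusted p = 0.037) were called, with 16.6% of all genes. That fit used a common correlation between cultures of a line for all genes. It thus does not give each gene its own spread between lines, while genotype differs only between lines.

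**Figure D1:**
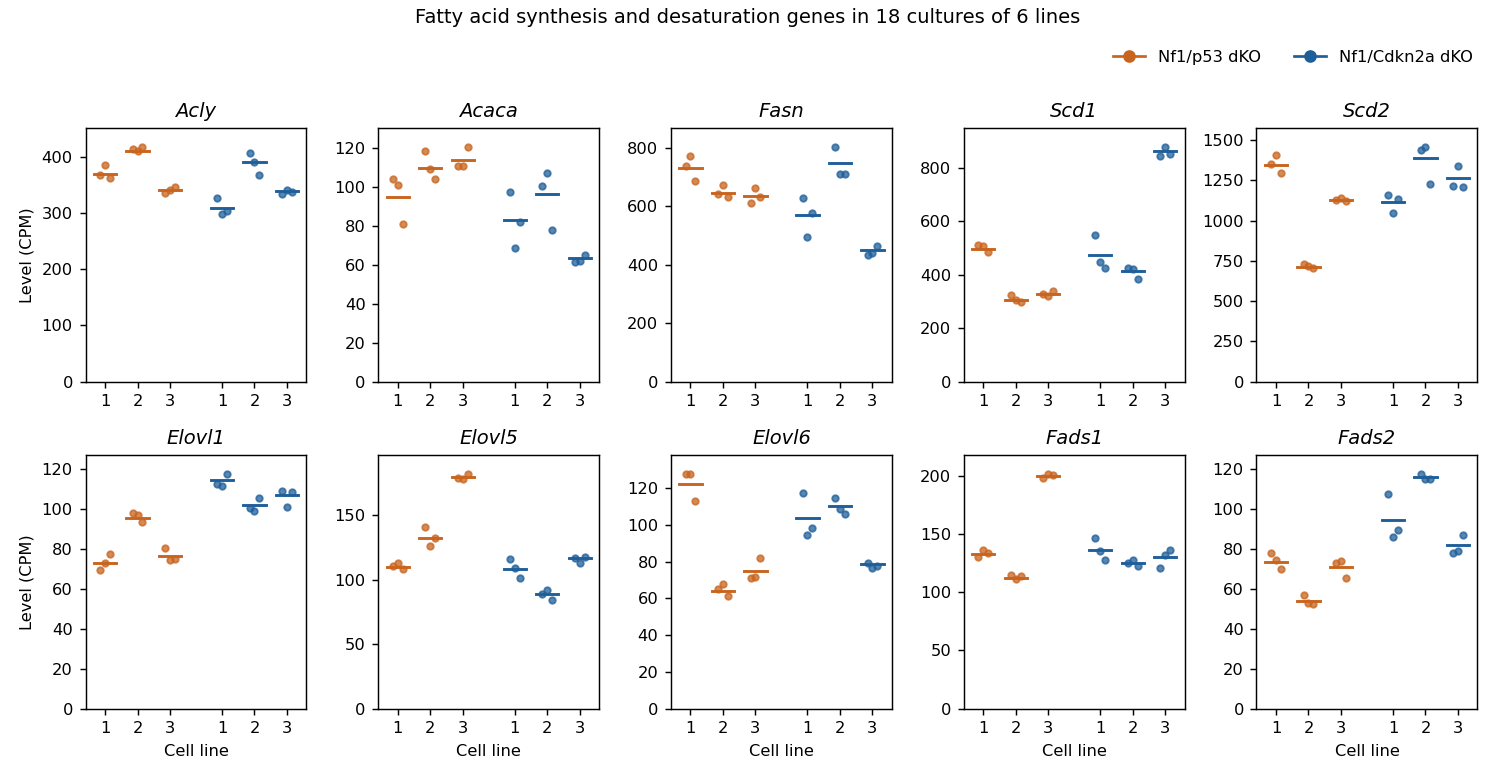
Level of each gene (CPM, y axis from 0) in the 6 lines (x axis), with points for the 3 cultures of a line and a bar for the line's summed level. Orange marks *Nf1*/*p53* dKO and blue *Nf1*/*Cdkn2a* dKO. *Elovl1* is the panel in which all cultures of one genotype lie above all of the other, while *Scd1* stands out in 1 *Nf1*/*Cdkn2a* dKO line and *Elovl5* and *Fads1* in 1 *Nf1*/*p53* dKO line.

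The first steps of synthesis had fitted levels slightly lower in the *Nf1*/*Cdkn2a* dKO lines, with overlap between the groups for each gene. *Acly* (chr11:100476353-100528000, minus strand) encodes ATP-citrate lyase, which makes cytosolic acetyl-CoA from citrate. It was at 370.3, 410.8 and 340.9 CPM with *p53* deleted and 309.7, 390.9 and 340.1 CPM with *Cdkn2a* deleted. These are the closest values of the 10 genes, with a ratio of highest to lowest line of 1.33, and the log2 fold change was -0.11 (SE 0.15, edgeR adjusted p = 0.71).

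*Acaca* (chr11:84129672-84401651, plus strand) encodes acetyl-CoA carboxylase 1, which commits acetyl-CoA to synthesis as malonyl-CoA. Its levels were 94.8, 109.8 and 114.1 CPM with *p53* deleted and 83.1, 96.2 and 63.5 CPM with *Cdkn2a* deleted. The lowest *Nf1*/*p53* dKO line lay just under the highest *Nf1*/*Cdkn2a* dKO line. The means were 106.2 ± 10.1 and 80.9 ± 16.5 CPM (SD, n = 3 lines each), a log2 fold change of -0.39 (SE 0.18, edgeR adjusted p = 0.27). Of the 50-base stretches of its longest transcript, 52.6% also occur in the processed pseudogene *Gm5182*, which is not listed in the table, so its counts are uncertain where reads matched both.

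*Fasn* (chr11:120805846-120824547, minus strand) encodes fatty acid synthase, the enzyme that builds palmitate. It was at 729.4, 644.4 and 635.6 CPM with *p53* deleted and 569.8, 747.0 and 449.7 CPM with *Cdkn2a* deleted. The *Nf1*/*Cdkn2a* dKO group thus held both the highest and the lowest line, and its SD was 149.6 CPM beside 51.8 CPM (n = 3 lines each). The log2 fold change was -0.19 (SE 0.21, edgeR adjusted p = 0.63), and -0.02 without *Nf1*/*Cdkn2a* dKO line 3. In that line *Acaca* and *Fasn* were both at their lowest, and all 3 of its cultures were below every other culture, at 61.6 to 65.3 CPM for *Acaca* and 431.5 to 465.5 CPM for *Fasn*.

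The stearoyl-CoA desaturases put the first double bond into palmitate and stearate. *Scd1* (chr19:44394455-44407879, minus strand), the form known from liver and fat, was at 497.9, 306.4 and 328.2 CPM with *p53* deleted and 472.1, 411.9 and 864.5 CPM with *Cdkn2a* deleted. *Nf1*/*Cdkn2a* dKO line 3 stood apart, with its cultures at 843.3 to 879.1 CPM and every other culture at 298.1 to 548.0 CPM. *Scd1* had the largest fitted difference of the 10 genes (log2 fold change 0.63, SE 0.34, edgeR adjusted p = 0.32), which was 0.23 without that line. It was thus highest in the line in which *Acaca* and *Fasn* were lowest.

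*Scd2* (chr19:44293674-44306864, plus strand), the form known from brain and peripheral nerve, was at 1346, 710.8 and 1130 CPM with *p53* deleted and 1116, 1388 and 1262 CPM with *Cdkn2a* deleted. A single line, *Nf1*/*p53* dKO line 2, lay apart at the low end, with cultures at 704.7 to 727.9 CPM and every other culture at 1045 CPM or more. The fitted log2 difference was 0.24 (SE 0.25, edgeR adjusted p = 0.61), and 0.03 without that line. *Scd1* and *Scd2* are 89.6% identical over their coding sequences, and 4.66% and 4.01% of the 50-base stretches of their longest transcripts occur in other genes. For both these were *Scd3*, *Scd4*, the other gene of the pair and *AC123853.3*. For *Scd2* they included *Mir5114*, which overlaps its exons on the same strand. How reads that match more than 1 gene were counted is not given in the sources used here.

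The elongases add carbon units to chains made by synthase or taken up, each with its own range of substrates. *Elovl1* (chr4:118428093-118432953, plus strand) encodes the elongase of very long saturated and monounsaturated chains, which enter sphingolipids. It was at 72.8, 95.3 and 76.6 CPM with *p53* deleted and 114.2, 101.7 and 107.0 CPM with *Cdkn2a* deleted. The groups did not overlap, either by line or by culture, where the highest of 9 *Nf1*/*p53* dKO cultures was at 97.9 CPM and the lowest of 9 *Nf1*/*Cdkn2a* dKO cultures at 98.9 CPM. The log2 fold change was 0.40 (SE 0.15, unadjusted p = 0.032 and adjusted p = 0.18 by edgeR), and 0.33 to 0.54 over the fits without 1 line. *Elovl1* overlaps *Cdc20* on the opposite strand, and whether the counting used strand is not given in the sources used here, so reads of the overlap cannot be told apart.

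*Elovl5* (chr9:77917364-77984519, plus strand) encodes the elongase of polyunsaturated chains. Its levels were 109.7, 131.9 and 179.4 CPM with *p53* deleted and 108.4, 88.6 and 116.6 CPM with *Cdkn2a* deleted. It was highest in *Nf1*/*p53* dKO line 3, whose cultures at 177.7 to 181.8 CPM lay above all others, and lowest in *Nf1*/*Cdkn2a* dKO line 2. The fit gave a log2 fold change of -0.42 (SE 0.22, edgeR adjusted p = 0.30), and -0.20 without *Nf1*/*p53* dKO line 3.

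*Elovl6* (chr3:129532355-129638495, plus strand) encodes the elongase that turns palmitate into stearate. It was at 122.2, 64.2 and 74.9 CPM with *p53* deleted and 103.7, 110.3 and 78.7 CPM with *Cdkn2a* deleted. The highest and the lowest line were both *Nf1*/*p53* dKO lines, so that the spread within this genotype covered all other lines. The log2 fold change was 0.16 (SE 0.27, edgeR adjusted p = 0.76), and its sign turned (below 0.01 in size) when *Nf1*/*p53* dKO line 2 was left out. *Elovl6* shares 4.59% of its 50-base stretches with other genes and overlaps *Gm35986* on the opposite strand, with the same limit as for *Elovl1*.

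The fatty acid desaturases *Fads1* and *Fads2* lie side by side on chromosome 19 and act in turn on dietary polyunsaturated chains, *Fads2* as the delta-6 and *Fads1* as the delta-5 desaturase. *Fads2* (chr19:10062765-10101746, minus strand) was at 73.7, 53.9 and 70.96 CPM with *p53* deleted and 94.6, 116.4 and 82.2 CPM with *Cdkn2a* deleted. The lines did not overlap, while the cultures met at 78.3 CPM, the highest *Nf1*/*p53* dKO and the lowest *Nf1*/*Cdkn2a* dKO value. It differed by a log2 fold change of 0.56 (SE 0.19, unadjusted p = 0.024 and adjusted p = 0.16 by edgeR), and 0.42 to 0.68 over the fits without 1 line.

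*Fads1* (chr19:10182888-10196877, plus strand) was at 132.5, 112.4 and 199.97 CPM with *p53* deleted and 136.3, 125.2 and 130.5 CPM with *Cdkn2a* deleted. The latter lines were nearly level (SD 5.58 CPM, n = 3), and the *Nf1*/*p53* dKO lines spanned them. Line 3 was the high one, with cultures at 197.8 to 201.4 CPM. Its log2 fold change was -0.18 (SE 0.23, edgeR adjusted p = 0.67) with all lines and 0.10 without that line. The neighboring desaturases thus had fitted changes of unlike sign.

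**Figure D2:**
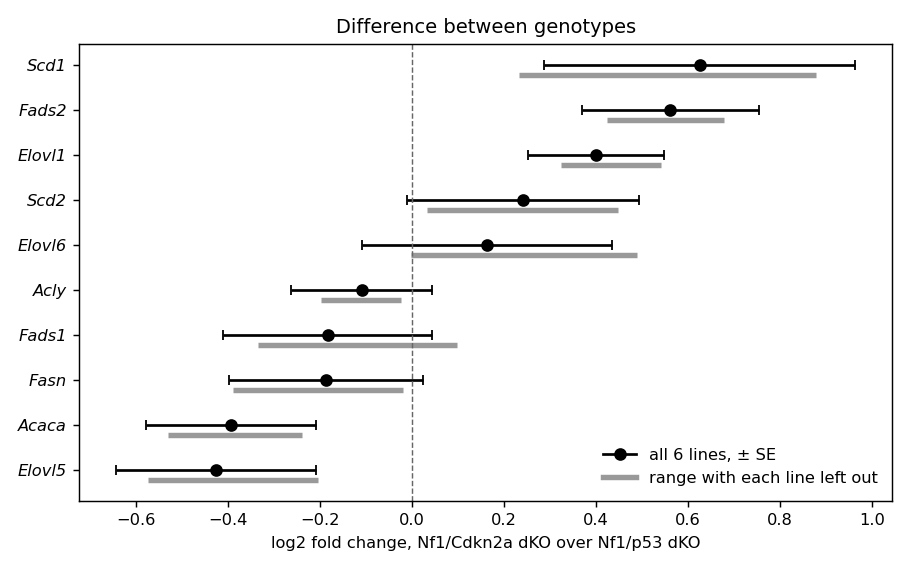
Fitted log2 fold change of each gene (x axis), *Nf1*/*Cdkn2a* dKO over *Nf1*/*p53* dKO, with the SE as error bar (black, edgeR on 6 lines) and the range of the value when each line was left out in turn (gray). The gray ranges of *Elovl6* and *Fads1* cross 0. Those of the other genes do not, though those of *Acly*, *Fasn* and *Scd2* come near it.

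For 7 of the 10 genes more of the variation lay between lines of the same genotype than between genotypes, and for 3 (*Acaca*, *Elovl1* and *Fads2*) less. As a share of the total sum of squares of log2 CPM over the 18 cultures, lines within a genotype took a median of 67.8% over the 10 genes, genotype 26.4% and cultures of a line 4.56%. Over all 13110 genes of that table the medians were 51.2%, 25.04% and 10.9%. *Fads1* (88.3%) and *Elovl6* (86.6%) had the highest shares between lines, while *Elovl1* (67.0%) and *Fads2* (60.7%) had the highest shares between genotypes. The range over lines was nevertheless modest, from 1.33-fold for *Acly* to 2.82-fold for *Scd1*, and only *Scd1* had a wider range than the median gene tested. All 10 genes were among the highest 18.8% of tested genes by mean level. The comparisons with all genes, here and for the size of the change, were not matched for level and include weakly counted genes.

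Individual lines had profiles of their own. *Nf1*/*p53* dKO line 2 held the lowest value of 5 of the 10 genes, namely *Scd1*, *Scd2*, *Elovl6*, *Fads1* and *Fads2*, and the highest value of *Acly*. For *Scd2*, *Elovl6*, *Fads1* and *Fads2*, all 3 of its cultures were below every other culture. Its summed level of the 10 genes was 2640 CPM, and the other 5 lines were at 3109 to 3576 CPM. Most of this gap was *Scd2*, at 710.8 CPM in this line and 1116 to 1388 CPM in the others. *Nf1*/*p53* dKO line 3 held the highest *Acaca*, *Elovl5* and *Fads1*, and *Nf1*/*Cdkn2a* dKO line 2 the highest *Fasn*, *Scd2* and *Fads2* and the lowest *Elovl5*.

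Markers of other cell types also differed between these lines, though members of the same list did not all move together. In *Nf1*/*p53* dKO line 2, *Ngfr* was at 64.3 CPM and *Fabp4* at 15.05 CPM, with at most 1.139 and 1.28 CPM in the other lines. *Egr2* (19.4 CPM) and *Mbp* (6.38 CPM) were also highest there. *Gap43* was at 4.72 CPM there and at up to 59.6 CPM elsewhere. *Pmp22* and *Cebpa* were at 48.8 and 15.3 CPM there, and highest in *Nf1*/*p53* dKO line 3, at 71.3 and 48.1 CPM. In *Nf1*/*p53* dKO line 3, the muscle regulator *Myod1* was at 203.6 CPM, with at most 1.75 CPM elsewhere. The 6 myogenic markers summed to 53.8 to 416.6 CPM per line with *p53* deleted and 0.20 to 0.80 CPM with *Cdkn2a* deleted, and 2 of the 4 tested, *Myf5* and *Cdh15*, were called lower in the latter. The 11 adipocyte markers summed to 13.8 to 50.1 CPM with *p53* deleted and 6.88 to 11.1 CPM with *Cdkn2a* deleted, with 7 of them under 1 CPM in every line. The 9 Schwann cell markers used summed to 78.5 to 147.5 and 24.8 to 108.1 CPM in the same order, and the 9 leukocyte markers to 3.92 to 7.73 and 6.71 to 8.28 CPM. The 4 epithelial markers summed to 2.67 to 739.4 and 8.26 to 611.0 CPM. Among them, *Krt8* was high in a line of each genotype, at 539.98 CPM in *Nf1*/*p53* dKO line 2 and at 601.4 CPM in *Nf1*/*Cdkn2a* dKO line 1. *Krt18* was at 198.8 and 9.30 CPM in these lines. In *Nf1*/*Cdkn2a* dKO line 2 it was at 171.7 CPM, with *Krt8* at 10.9 CPM. The part of these markers in the levels of the lipid genes was not tested. The marker genes named here were chosen after their values were seen.

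**Figure D3:**
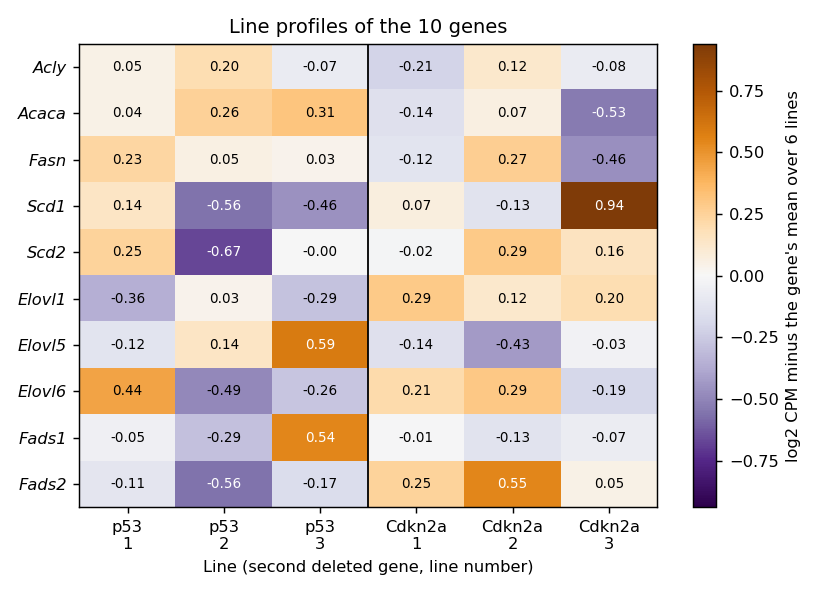
Level of each of the 10 genes (rows) in the 6 lines (columns), as log2 CPM minus the gene's mean over the lines, with the value printed in each cell and a line between the genotypes. Orange is above the mean and purple below it. The highest cell is *Scd1* in *Nf1*/*Cdkn2a* dKO line 3 (0.94) and the lowest *Scd2* in *Nf1*/*p53* dKO line 2 (-0.67).

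Between genes, levels were compared per kilobase of merged exons (CPM per kb, mean of the 6 lines). *Scd2* was the highest at 212.1, followed by *Scd1* at 98.2, *Acly* at 68.3 and *Fasn* at 57.5. *Elovl5* (34.8) and *Elovl1* (34.7), *Fads1* (28.99), *Fads2* (24.9) and *Elovl6* (14.4) came next, and *Acaca* (5.48) was the lowest. *Scd2* was above *Scd1*, *Acly* above *Fasn*, *Fasn* above *Elovl5* and *Fads2* above *Elovl6* in each of the 6 lines, and *Scd1* above *Acly* in 5. *Elovl5* was above *Elovl1* in 3 of the 6, which were the *Nf1*/*p53* dKO lines (mean 39.8 against 29.9). It was below *Elovl1* in every *Nf1*/*Cdkn2a* dKO line (mean 29.7 against 39.5). *Elovl1* was above *Fads1* in 4, namely *Nf1*/*p53* dKO line 2 and the *Nf1*/*Cdkn2a* dKO lines. *Fads1* was above *Fads2* in 4, namely the *Nf1*/*p53* dKO lines and *Nf1*/*Cdkn2a* dKO line 3. These orders were not tested. With the longest transcript as the length, *Elovl1* and *Elovl5* changed places and the rest of the order was the same, and *Acaca*, whose merged exons are 17074 bases against 9513 in the longest transcript, was at 9.84.

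The balance within 3 pairs of enzymes was taken from these per-length levels in each line. The share of *Fads2* in the sum of *Fads2* and *Fads1* was 44.8, 41.2 and 34.1% with *p53* deleted and 50.3, 57.6 and 47.9% with *Cdkn2a* deleted. The shares did not overlap, with means of 40.0 ± 5.43% and 51.9 ± 5.04% (SD, n = 3 lines each), a difference of 11.9 percentage points (two-sided exact permutation p = 0.1, the smallest that 3 against 3 lines can give, and 0.3 after Benjamini-Hochberg adjustment over the 3 pairs). With the longest transcript as the length, the shares were 37.9, 34.5 and 28.04% with *p53* deleted and 43.3, 50.5 and 40.9% with *Cdkn2a* deleted, again without overlap and 11.4 points apart.

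The share of *Scd1* in the sum of *Scd1* and *Scd2* was 29.2, 32.5 and 24.5% with *p53* deleted and 32.1, 24.9 and 43.3% with *Cdkn2a* deleted. The groups overlapped (difference 4.69 points, exact permutation p = 0.6), and without *Nf1*/*Cdkn2a* dKO line 3 the difference was -0.26 points. The share of *Elovl6* in the sum of *Elovl6* and *Elovl5* was 37.9, 21.1 and 18.6% against 34.4, 40.5 and 26.98%, which overlapped as well (difference 8.12 points, exact permutation p = 0.3). Adjusted over the 3 pairs these p-values were 0.6 and 0.45.

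**Figure D4:**
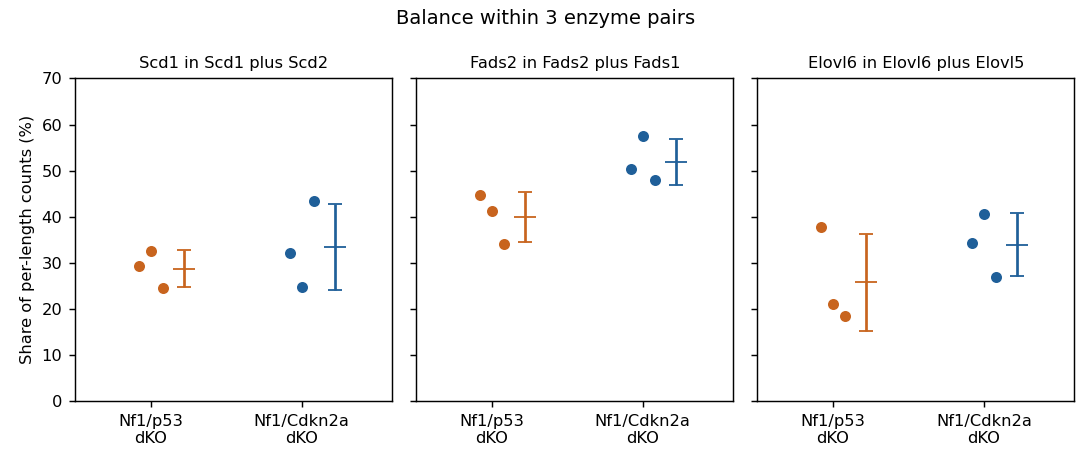
Share of the first gene of each pair in the per-length counts of both (y axis, percent, from 0), with a point for each line, and the mean and SD of 3 lines beside them. Orange marks *Nf1*/*p53* dKO and blue *Nf1*/*Cdkn2a* dKO. Only in the *Fads2* panel do the points of the genotypes not overlap.

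Position on the chromosome was set beside these values. *Acly*, *Acaca* and *Fasn* are on chromosome 11 and both desaturase pairs on chromosome 19. The 24 other genes tested within 1 Mb of *Scd1* had a median log2 fold change of 0.44, beside 0.63 for *Scd1* and 0.24 for *Scd2*, and the 30 around *Fads1* and *Fads2* a median of 0.31, beside -0.18 and 0.56. Around *Elovl1* the median of 29 genes was -0.07, with *Elovl1* itself at 0.40, and around *Elovl6* that of 10 genes was -0.53, with *Elovl6* at 0.16. Around *Acly*, *Acaca*, *Fasn* and *Elovl5* the medians were 0.09, -0.19, -0.09 and 0.04. The part of the neighborhood in the genes' levels was not tested.

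The genes outside the 10 with the pattern most like theirs were found by the mean absolute difference between a gene's centered log2 CPM and the mean of the 10 over the 18 cultures. These were *Abca2*, *Tex2*, *Nmt1*, *Dusp11* and *Pmpca*, at 0.06 to 0.07, beside a median of 0.32 over all genes. The average of the 10 was nearly flat, and so were these genes, with *Abca2* at 36.4 to 41.2 CPM over the 6 lines. The 10 genes lay at 0.14 (*Acly*) to 0.37 (*Scd1*) from their own average, so that *Scd1* was farther from it than the median gene.

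The surrounding pathway was described with 9 lists of companion genes. Of their 136 genes 122 were tested, of which 71 had a higher and 51 a lower fitted level in the *Nf1*/*Cdkn2a* dKO lines. By edgeR 1 was called, *Etfdh*, and 24 (19.7%) had an unadjusted p under 0.05, against the 22.4% of all genes. DESeq2 on the 6 lines called 15 (12.3% of the 122, against 14.3% of all genes) and limma-voom on the cultures 20 (16.4%, against 16.6%), and 29 (23.8%) did not overlap between the genotypes, against 31.4% of all genes.

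The called gene was on the side of fatty acid breakdown. *Etfdh* encodes the dehydrogenase that passes electrons from acyl-CoA oxidation to ubiquinone. It was at 80.5, 72.0 and 79.6 CPM with *p53* deleted and 32.7, 29.1 and 37.9 CPM with *Cdkn2a* deleted, without overlap. The log2 fold change was -1.22 (SE 0.15, edgeR adjusted p = 0.029). It was under 0.05 in 10 of 17 other settings, with adjusted p-values from 1.1e-64 to 0.12, and in none of those that left out a line. Of the 19 oxidation genes tested, 7 were fitted higher and 12 lower (median -0.14), and *Acadl*, the long-chain acyl-CoA dehydrogenase, had the highest value at 0.36 (adjusted p = 0.31).

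By edgeR on the 6 lines, the lists on the side of supply had no called gene in either direction. Limma-voom on the cultures called 4 of the 10 listed genes for substrates and NADPH and 1 regulator, against 16.6% of all genes. DESeq2 on the 6 lines called 0 and 2, against 14.3%. Of 9 tested genes for acetyl-CoA substrates and NADPH, 7 were fitted higher (median log2 fold change 0.28), from -0.22 for *Aco1*, the cytosolic aconitase, to 1.35 for *Idh1*, the cytosolic isocitrate dehydrogenase that yields NADPH. *Idh1* was at 105.3, 63.8 and 24.1 CPM with *p53* deleted and 112.6, 151.7 and 227.3 CPM with *Cdkn2a* deleted, without overlap (edgeR adjusted p = 0.20). Of 19 tested regulators, 13 were fitted higher (median 0.17), from -0.45 for *Srebf2*, the sterol regulator, to 0.70 for *Nr1h3*, the liver X receptor alpha. *Nr1h3* was low and overlapped, at 2.24, 0.81 and 0.32 against 0.96, 0.56 and 3.94 CPM (SE 0.95, edgeR adjusted p = 0.70). *Srebf1*, the lipogenic SREBP, which was chosen after its values were seen, was at 162.8, 110.5 and 179.1 against 144.8, 179.5 and 144.1 CPM (0.05, adjusted p = 0.91).

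Relatives of the 10 enzymes were mixed. Of 14 tested genes of other elongation and desaturation steps 8 were fitted higher (median 0.05). EdgeR on the 6 lines called 0 of them. DESeq2 on the 6 lines called 3, against 14.3% of all genes, and limma-voom on the cultures 2, against 16.6%. Without overlap between the genotypes were 4 higher and 2 lower genes, against 31.4% of all genes in either direction. *Elovl4*, an elongase of the longest chains, had the lowest value (14.7, 15.2 and 19.5 against 8.05, 9.30 and 2.86 CPM, log2 fold change -1.29, edgeR adjusted p = 0.16) and *Scd4* the highest (1.34, adjusted p = 0.28) at under 1 CPM in every line. *Scd3*, chosen after its values were seen, had 0 to 4 counts per culture, so that *Scd1* and *Scd2* made up nearly all counts of the family.

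The lists for the use of fatty acids and the last 2 lists, below, had no called gene by edgeR on the 6 lines either. DESeq2 on the 6 lines called 2 genes of activation, 1 of glycerolipid synthesis and storage and 3 of uptake and binding. It called 1 of mitochondrial fatty acid synthesis and 1 of cholesterol synthesis, against 14.3% of all genes. Limma-voom on the cultures called 2, 2, 3, 0 and 4 in the same order, against 16.6% of all genes. Of 9 tested activation genes 4 were fitted higher (median -0.03), from -1.75 for *Slc27a3* to 0.82 for *Slc27a1*, both of the fatty acid transport protein family. Of 20 tested genes of glycerolipid synthesis and storage 11 were fitted higher (median 0.19), from -3.58 for *Mgll*, monoglyceride lipase, which was at 63.2 CPM in *Nf1*/*p53* dKO line 2 and at most 4.85 CPM elsewhere, to 1.44 for *Agpat2*, an acyltransferase of phosphatidic acid synthesis. *Agpat2* was at 34.4, 9.62 and 17.2 CPM with *p53* deleted and 50.9, 53.5 and 61.3 CPM with *Cdkn2a* deleted, without overlap (adjusted p = 0.13). Of 9 tested uptake and binding genes 5 were fitted higher (median 0.10), from -3.76 for *Lpl*, lipoprotein lipase, to 0.95 for *Mfsd2a*, a carrier of lysophosphatidylcholine. Of 8 tested genes of mitochondrial fatty acid synthesis 4 were fitted higher (median -0.01), from -0.54 for *Lias*, lipoic acid synthetase, to 0.36 for *Lipt2*. Of 15 cholesterol synthesis genes 12 were fitted higher (median 0.20), from -0.16 for *Fdps* to 0.76 for *Sc5d*. These medians stand beside the -0.02 of all genes.

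**Figure D5:**
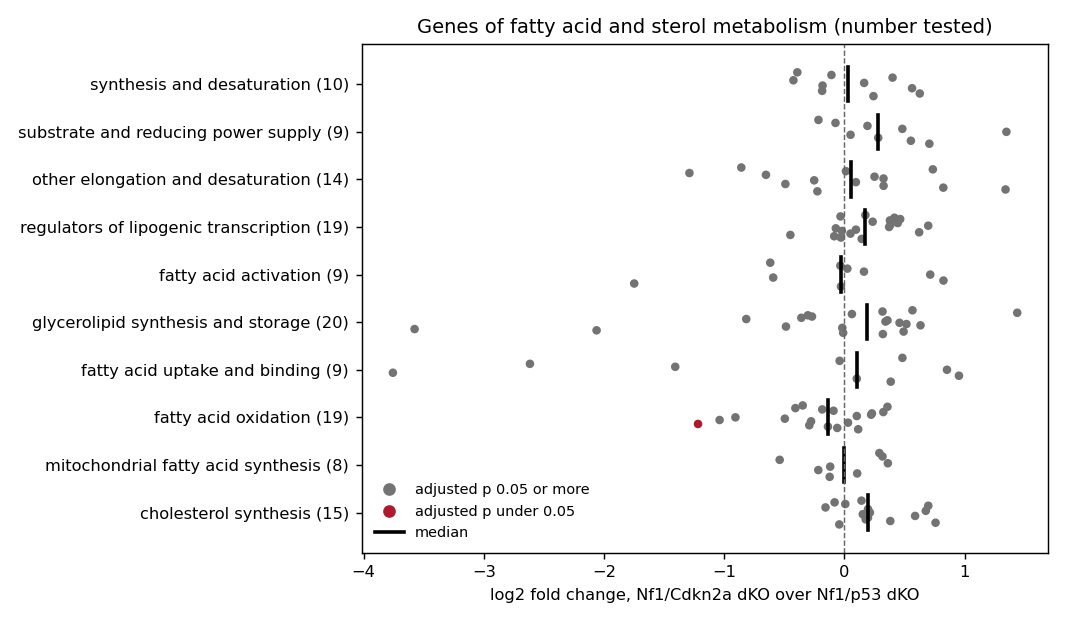
Fitted log2 fold change (x axis, *Nf1*/*Cdkn2a* dKO over *Nf1*/*p53* dKO) of every tested gene in the 10 genes described here (top row) and in the 9 companion lists, with the number tested in brackets and the median as a black bar. The top row spans -0.42 to 0.63, and *Etfdh* in the oxidation list is the gene in red, the one with an adjusted p under 0.05.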

How the data were processed

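The authors sequenced RNA from 18 cultures and deposited raw counts, whole numbers of reads per gene, without normalization. The submitters' processing notes name CASAVA, STAR 2.5, DESeq2 1.14.1 and the builds GRCm38 and mm10; the counting program and its annotation release are not given in the sources used here. Gene positions and lengths are from GENCODE M21 (GRCm38), in which 34490 of the 35275 identifiers were found, and promoters from RefSeq GRCm38.p6.

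From these counts, the 3 cultures of each line were summed, so that n is 3 lines per genotype. Genes were kept with filterByExpr (minimum count 10, minimum total 15), scaled by TMM and tested in R 4.3.3 by the quasi-likelihood method of edgeR 4.0.16, with p-values adjusted by Benjamini-Hochberg over all genes tested and a call at an adjusted p under 0.05. Alternatives used DESeq2 1.42.0 and limma 3.58.1. A positive log2 fold change means higher in *Nf1*/*Cdkn2a* dKO. Shares within pairs were tested by exact permutation of lines (scipy in Python). The fit was tested on simulated data. No use of molecular identifiers is stated.

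Named are the 10 genes, the targeted genes, each companion list's called genes and its highest and lowest fitted value, and the 5 genes nearest in pattern. The 10 genes, the 9 companion lists and the 6 marker lists were chosen with earlier results of these data known. A marker gene was left out of its list and is not reported here. Same-numbered lines (correlations of their deviations -0.099, -0.133 and -0.085) and cultures were not paired. Alternatives were the cultures as samples, DESeq2 or limma-voom, other scalings and filters, number blocks, the longest transcript as length, and each line left out. The metabolite measurements were not analysed here.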

Additional observations from a re-analysis of the deposited data

Results flagged for a closer look

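In the *Nf1*/*p53* dKO cultures, the third culture of line 1 was the lowest of 9 for *Acaca*, at 80.95 CPM, with a gap to the next culture of 0.51 of the group's range. It was the 1 group of 20 (10 genes in 2 genotypes) in which a culture stood off in this way, and chance gives about 1 in 20 for independent values, while the 9 cultures here come from 3 lines. The other cultures of that genotype lay at up to 120.7 CPM.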

How the results depend on the processing

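None of the 10 genes was called with 6 lines under any scaling, filter or left-out line, and both methods on cultures as separate samples called 5 each. Over all genes, 274 calls became 6096 (edgeR) and 6409 (DESeq2) with the cultures as samples, 2173 with limma-voom (2 of the 10), 2171 with DESeq2 on the lines, 423 with raw totals and from 0 (without *Nf1*/*Cdkn2a* dKO line 1, 2668 at an unadjusted p under 0.05) to 172 (without *Nf1*/*p53* dKO line 1) when a line was left out. With the line number as a replicate block there were 0 calls (2740 at an unadjusted p under 0.05, none of them in the 10), and with the culture number as a block in limma-voom 2012, 2 of them among the 10; neither number pairs the samples. Raw totals moved the median of all genes from -0.02 to -0.16 and that of the 10 from 0.03 to -0.11, and the called genes that were higher from 97 of 274 to 86 of 423. With a line left out the median of the 10 was -0.04 to 0.11. The signs of *Elovl6* (-0.0017 without *Nf1*/*p53* dKO line 2, range with a line left out up to 0.49) and *Fads1* (0.10 without *Nf1*/*p53* dKO line 3, down to -0.33) turned, as did the *Scd1* share, whose difference was -0.26 to 8.96 points. Those of *Fads2* were 8.94 to 14.3 and of *Elovl6* 4.50 to 14.1. Of 170 values of the 10 genes under 17 alternatives, 154 kept their sign and side of the threshold, 14 passed it and 2 turned. The cause was not tested. The smallest count of any of the 10 in a culture was 1173.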
